A study of Saccharomyces cerevisiae with 4 samples.

Results

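*DBP1*, its paralog *DED1* and 6 further DEAD-box helicase genes (*DBP2*, *DBP5*, *SUB2*, *FAL1*, *MSS116* and *MRH4*) were followed through ribosome profiling and mRNA-seq of meiotic yeast in which *DBP1* was deleted. The genes were chosen by symbol, and all 8 were found among the 6549 entries of each of the 4 tables. The comparison asks how high each helicase stood relative to *DBP1* of wild type, and whether any of them was higher once *DBP1* was gone.

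Cells of the *dbp1Δ::kanMX6* strain, in which a Geneticin-resistance cassette took the place of the whole *DBP1* ORF, were set against wild type. Both were diploid SK1 budding yeast (*Saccharomyces cerevisiae*), a background that sporulates efficiently. Both carried *trp1::hisG* and *his3::hisG* together with *ura3*, *lys2* and *ho::LYS2*. The paper lists such diploid pairs with *leu2::hisG*, and with *LEU2* and a tagged *DED1*, and does not say which pair was sequenced. Cells were taken 4 h after transfer to sporulation medium, after 1 min in the elongation inhibitor cycloheximide (100 µM in the labels, a mass per volume in the methods). Each genotype gave 1 library of ribosome footprints (FP), the stretches of mRNA left under ribosomes after nuclease digestion, and 1 mRNA library, so no value has a replicate and the genotypes were not tested against each other. The cassette and the loss of *DBP1* came together in 1 strain and cannot be told apart in these libraries. The paper reports that exogenous *MRP51*, the gene next to *DBP1*, rescued growth and sporulation defects of *dbp1Δ::kanMX6* cells, whereas exogenous *DBP1* did not. Whether the helicase values follow from either change was not tested.

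DEAD-box proteins are RNA helicases that bind and release RNA in step with ATP binding and hydrolysis, and they locally unwind duplexes or strip proteins from RNA. Ded1 acts in translation initiation, where it helps the small ribosomal subunit load on and scan the leaders of mRNAs, and Dbp1 is its close paralog. The other 6 act at other steps of the life of RNA. The label under which the genes were grouped, non-ribosomal helicases, goes against *FAL1*, *DBP2* and *MRH4*. The files describe Fal1 as a protein needed for 18S rRNA maturation and Dbp2 as involved in rRNA processing. Mrh4 acts in assembly of the large mitochondrial ribosomal subunit.

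Levels are RPKM, reads scaled to ORF length and library size. A change is the plain ratio of RPKM, *dbp1Δ::kanMX6* over wild type, and translation efficiency (TE) is FP RPKM over mRNA RPKM. Intervals in parentheses are 95% intervals of inferred reads. They cover counting error only, since the reads carry no molecular identifiers and can be copies of one molecule. The libraries held an inferred 3260000 (FP) and 4780000 (mRNA) reads in *dbp1Δ::kanMX6* cells, against 4100000 (FP) and 2220000 (mRNA) in wild type.

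Before the helicases were compared, the libraries were checked for meiotic stage. Of 10 early meiotic genes, 10 had higher footprints in *dbp1Δ::kanMX6* cells, with a summed level of 11656 RPKM against 8866 RPKM in wild type. Footprints were higher for 68.7% of all entries too, and 7 of the 10 early genes were above the median entry. Of 14 middle meiotic genes, 13 had footprints at least 1.5-fold lower, where 13.9% of all entries did, and none had higher ones, with a summed level of 6785 RPKM in *dbp1Δ::kanMX6* cells against 14782 RPKM in wild type. Summed middle-gene mRNA was 9926 RPKM in *dbp1Δ::kanMX6* cells against 23519 RPKM in wild type. None of these 24 markers was at 0 in any library. The genotypes thus differed in stage markers as well as in *DBP1*. Whether that reflects fewer cells at a stage or less RNA per cell cannot be told apart in bulk samples, and its part in the helicase values was not tested. The median entry was also higher in *dbp1Δ::kanMX6* cells, 1.27-fold for footprints and 1.29-fold for mRNA (log2 0.35 and 0.37). Footprint and mRNA ratios of the listed helicases other than *DBP1* are therefore also given after division by these medians (centring). Ratios of other genes are as deposited unless centring is named.

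*DBP1* (YPL119C, chromosome XVI) was the most heavily translated of the 8 genes in wild type and the lowest in the deletion. Its footprints stood at 6.9 RPKM (42 inferred reads) in *dbp1Δ::kanMX6* cells against 435.2 RPKM (3311 reads) in wild type. Its mRNA stood at 2.9 RPKM (26 inferred reads) in *dbp1Δ::kanMX6* cells against 131.5 RPKM (541 reads) in wild type. Footprints were thus at 1.59% (1.15 to 2.16, ratio 0.0159) and mRNA at 2.21% (ratio 0.0221) of the wild-type level, which matches the labelled genotype. The remaining reads were above the floor of 3 reads. How reads that match both paralogs were assigned is not stated, and the source of the remaining reads was not tested. *DBP1* was the 1 listed gene at least 1.5-fold lower in either assay, where 13.9% of all entries tested were that much lower in footprints and 9.12% in mRNA.

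*DED1* (YOR204W, chromosome XV) stood close to *DBP1* in wild type. It had 452.0 RPKM of footprints in *dbp1Δ::kanMX6* cells against 321.7 RPKM in wild type, and 123.1 RPKM of mRNA against 107.4 RPKM. Relative to wild-type *DBP1*, *DED1* footprints were at 104% in *dbp1Δ::kanMX6* cells and 73.9% in wild type, and its mRNA was at 93.6% and 81.7%. As deposited, *DED1* footprints in the deletion over *DBP1* footprints in wild type gave a ratio of 1.04 (0.987 to 1.09). Divided by the change of the median entry the ratio was 0.817 (0.776 to 0.860), so whether *DED1* reached the wild-type *DBP1* level depends on the scaling. The same division applies to every deletion level given as a percentage of wild-type *DBP1*.

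The paralog was modestly higher without *DBP1*, and more in footprints than in mRNA. Its footprint ratio was 1.41 (1.33 to 1.49) and its mRNA ratio 1.15 (1.02 to 1.28). Against the median entry these became 1.10 (1.05 to 1.17) for footprints and 0.887 (0.792 to 0.994) for mRNA, so the direction of the mRNA change turned with the scaling. The footprint ratio of *DED1* exceeded that of 58.3% of entries, and its mRNA ratio that of 39.3%. *DED1* gained 130.3 RPKM of footprints where *DBP1* lost 428.3 RPKM, a gain of 30.4% of the loss, but after centring the gain was 33.7 RPKM, or 7.84% of the loss. In mRNA it was 15.7 RPKM higher as deposited, where *DBP1* lost 128.6 RPKM, but after centring it stood at 95.2 RPKM in *dbp1Δ::kanMX6* cells against 107.4 RPKM in wild type. The paralog pair together summed to 458.9 RPKM of footprints in *dbp1Δ::kanMX6* cells against 756.9 RPKM in wild type, 1.65-fold lower as deposited and 2.10-fold lower after centring. Their summed mRNA was 126.0 RPKM in *dbp1Δ::kanMX6* cells against 238.9 RPKM in wild type, 1.90-fold lower as deposited and 2.45-fold lower after centring. *DED1* made up 98.5% of the footprints of the pair in the deletion and 42.5% in wild type.

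**Figure D1:**
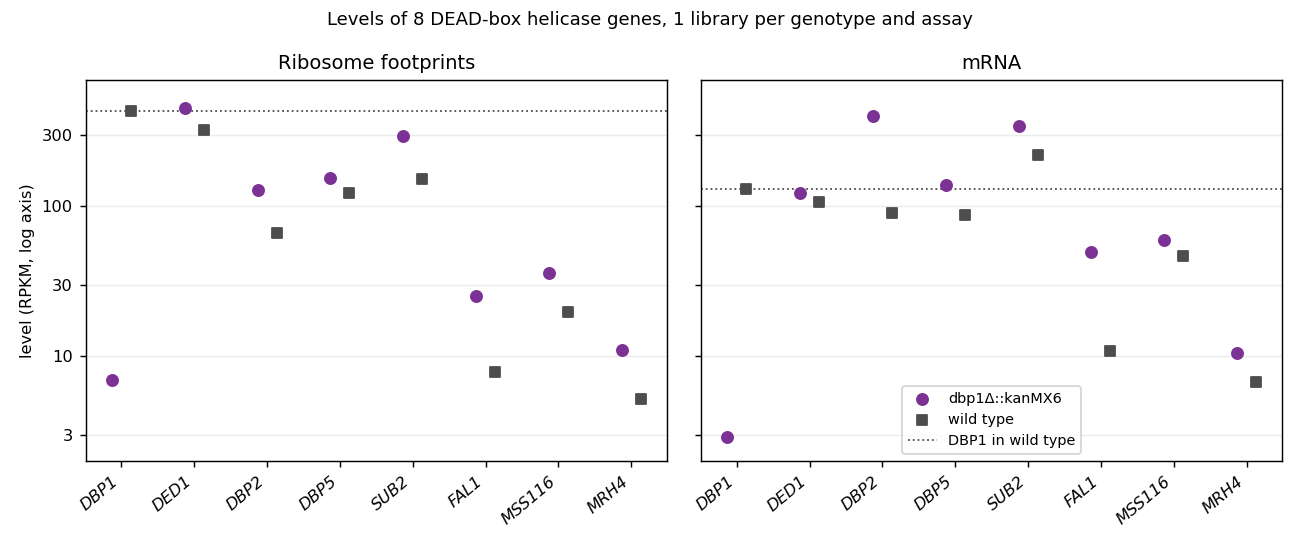
Level of each helicase gene (RPKM, log axis) in footprint libraries (left) and mRNA libraries (right), with *dbp1Δ::kanMX6* as circles, wild type as squares and the wild-type *DBP1* level as a dotted line. As deposited, in footprints only *DED1* of the deletion, at 452.0 RPKM, stood above the wild-type *DBP1* level of 435.2 RPKM, whereas in mRNA *DBP2* and *SUB2* stood far above the wild-type *DBP1* level of 131.5 RPKM.

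*SUB2* (YDL084W, chromosome IV) encodes the helicase of the TREX complex, which couples transcription to mRNA export, and also acts in spliceosome assembly. It had 294.5 RPKM of footprints in *dbp1Δ::kanMX6* cells against 152.0 RPKM in wild type, a ratio of 1.94 (1.78 to 2.12). Its mRNA was 343.1 RPKM in *dbp1Δ::kanMX6* cells against 219.0 RPKM in wild type, a ratio of 1.57 (1.43 to 1.71). In wild type it was the 1 listed gene with more mRNA than *DBP1*, at 167% of the *DBP1* level, yet its footprints were at 34.9%. In the deletion its footprints were at 67.7% of wild-type *DBP1*. After centring on the median entry its ratios were 1.52 for footprints and 1.21 for mRNA.

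*DBP5* (YOR046C, chromosome XV) encodes the helicase that releases export factors from mRNA at the cytoplasmic face of the nuclear pore. It moved with the median entry in footprints. These were 154.8 RPKM in *dbp1Δ::kanMX6* cells against 123.3 RPKM in wild type, a ratio of 1.26 (1.13 to 1.39) that became 0.987 after centring. Its mRNA was 138.7 RPKM in *dbp1Δ::kanMX6* cells against 87.1 RPKM in wild type, a ratio of 1.59 (1.39 to 1.82) or 1.23 after centring. In the deletion *DBP5* mRNA was at 105% of wild-type *DBP1*, and its footprints were at 35.6%.

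*DBP2* (YNL112W, chromosome XIV) encodes a nuclear helicase with roles in mRNP assembly, mRNA decay and rRNA processing. Its mRNA and its footprints parted. The mRNA was 399.3 RPKM in *dbp1Δ::kanMX6* cells against 91.0 RPKM in wild type, a ratio of 4.39 (4.01 to 4.81). It was the most abundant mRNA of the 8 in the deletion, at 304% of wild-type *DBP1*, and the fourth in wild type. Footprints were 128.8 RPKM in *dbp1Δ::kanMX6* cells against 66.7 RPKM in wild type, a ratio of 1.93 (1.76 to 2.12). After centring, the ratios of *DBP2* were 3.39 for mRNA and 1.52 for footprints. *DBP2* has a long intron, its span in the gene table is 2643 bp, and the length by which its reads were divided is not known. Its reads and its level per length are therefore less certain than those of the other genes, but its ratios between genotypes do not depend on that length. The intervals given for *DBP2* do depend on it, since they rest on reads inferred with the span of 2643 bp.

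*FAL1* (YDR021W, chromosome IV) encodes a nucleolar member of the eIF4A subfamily. It was scarce in wild type and higher in the deletion in both assays. Its mRNA was 49.3 RPKM in *dbp1Δ::kanMX6* cells (283 inferred reads) against 10.9 RPKM in wild type (29 reads), a ratio of 4.52 (3.08 to 6.89). Its footprints were 25.4 RPKM in *dbp1Δ::kanMX6* cells (99 reads) against 7.9 RPKM in wild type (39 reads), a ratio of 3.22 (2.18 to 4.75). The mRNA ratios of *FAL1* and *DBP2* took places 38 and 40 from the highest among 5551 entries. After centring, the ratios of *FAL1* were still 3.50 for mRNA and 2.53 for footprints. Even so, its footprints in the deletion reached 5.84% of wild-type *DBP1*.

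*MSS116* and *MRH4* encode mitochondrial helicases, and *MRH4* had the lowest wild-type levels of the 8 genes in both assays. *MSS116* (YDR194C, chromosome IV) acts in splicing of mitochondrial group I and group II introns. Its footprints were 35.8 RPKM in *dbp1Δ::kanMX6* cells against 19.9 RPKM in wild type, a ratio of 1.80 (1.47 to 2.21) or 1.41 after centring. Its mRNA was 59.9 RPKM in *dbp1Δ::kanMX6* cells against 46.8 RPKM in wild type, a ratio of 1.28 (1.09 to 1.51) that became 0.990 after centring. *MRH4* (YGL064C, chromosome VII) acts in assembly of the large mitochondrial ribosomal subunit. It had 11 RPKM of footprints in *dbp1Δ::kanMX6* cells against 5.2 RPKM in wild type, a ratio of 2.12 (1.36 to 3.26). Its mRNA was 10.6 RPKM in *dbp1Δ::kanMX6* cells against 6.7 RPKM in wild type, a ratio of 1.58 (1.00 to 2.57). After centring, the ratios of *MRH4* were 1.66 (1.07 to 2.57) for footprints and 1.22 (0.774 to 1.99) for mRNA. The wild-type values of *MRH4* rest on an inferred 36 footprint reads and 25 mRNA reads, and its mean over the 4 libraries, 8.38 RPKM, was under the minimum of 10 RPKM for counts across entries.

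**Figure D2:**
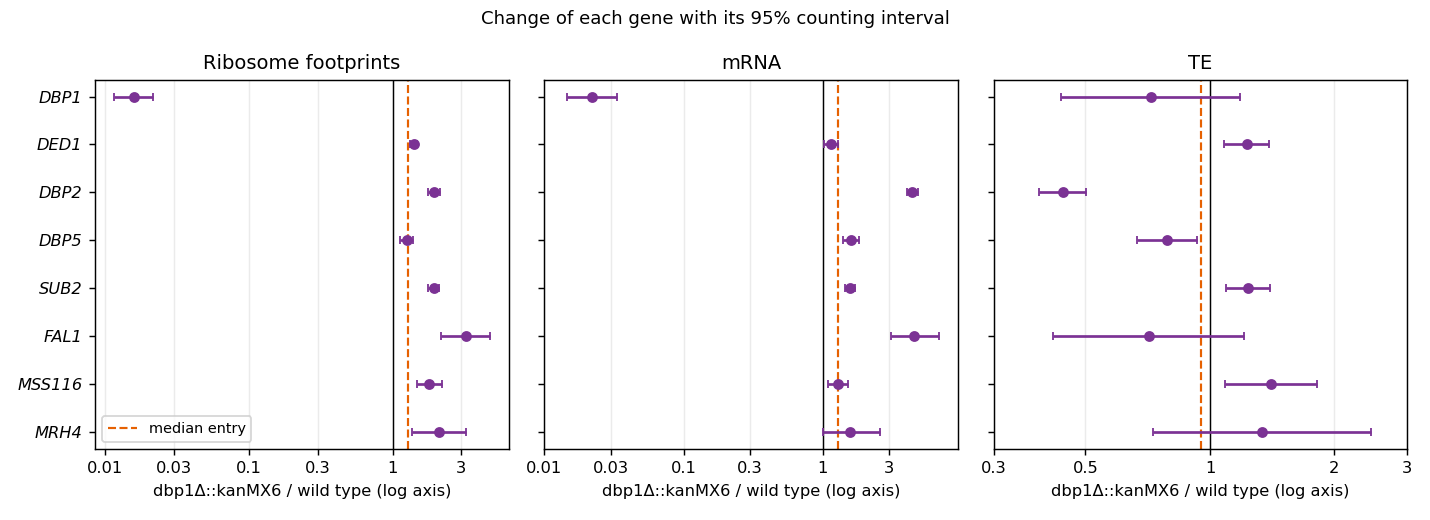
Ratio of *dbp1Δ::kanMX6* to wild type (log axis) for footprints, mRNA and TE of each gene, with 95% counting intervals as bars, a solid line at no change and a dashed line at the median entry. Both *DBP1* ratios lie near 0.02, *DBP2* and *FAL1* lie farthest to the right in mRNA, and the *DBP2* TE ratio of 0.440 is the lowest of the 8.

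Counted together, 7 of the 8 genes passed the minimum, and 6 of these were not *DBP1*. As deposited, all 6 had higher values in *dbp1Δ::kanMX6* cells in both assays, as did 68.7% of all entries in footprints and 71.3% in mRNA. After centring, *DED1* mRNA, *DBP5* footprints and *MSS116* mRNA had ratios below 1. Footprints were at least 1.5-fold higher for 4 of them (*DBP2*, *SUB2*, *FAL1* and *MSS116*), where 36.3% of all 5453 entries tested were. mRNA was at least 1.5-fold higher for 4 of them (*DBP2*, *DBP5*, *SUB2* and *FAL1*), where 36.0% of 5551 entries were. At least 2-fold higher were the footprints of *FAL1* (15.1% of all entries) and the mRNA of *DBP2* and *FAL1* (16.6% of all entries). The median ratio of the 6 genes was 1.86 for footprints, against 1.27 for all entries, and 1.58 for mRNA, against 1.29 for all entries. *MRH4*, left out of these counts, had ratios above 1.5 in both assays as deposited, and 1.66 for footprints and 1.22 for mRNA after centring. With 6 genes and 1 library per genotype and assay, these shares only describe the libraries. Centred on the median entry, 2 genes (*DBP2* and *FAL1*) remained at least 1.5-fold higher in mRNA, where 17.9% of all entries were. In footprints 3 remained (*DBP2*, *SUB2* and *FAL1*), where 17.6% of all entries did. The 7 genes other than *DBP1* summed to 1102 RPKM of footprints in *dbp1Δ::kanMX6* cells (866.7 RPKM after centring) against 696.7 RPKM in wild type. Their summed mRNA was 1124 RPKM in *dbp1Δ::kanMX6* cells (869.5 RPKM after centring) against 568.9 RPKM in wild type.

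**Figure D3:**
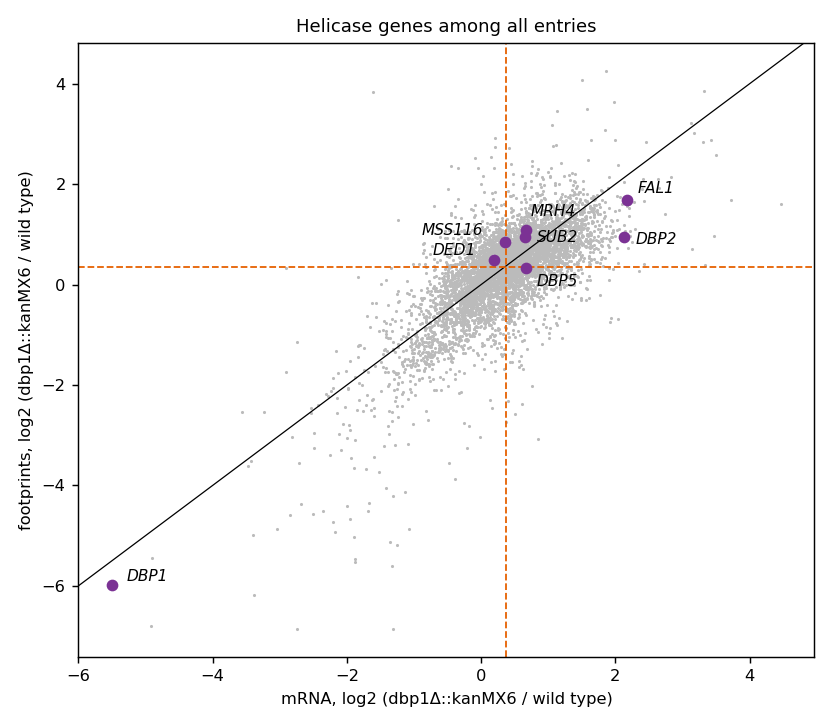
Change in footprints (vertical, log2) against change in mRNA (horizontal, log2) for the 5452 entries with all measures above the minimum (gray) and the 8 helicase genes (purple, *MRH4* included), with the line of equal change and dashed lines at the median entry. *DED1*, *DBP5*, *SUB2*, *MSS116* and *MRH4* lie inside the cloud, *DBP2* and *FAL1* at its right edge, and *DBP1* apart from it at −5.50 in mRNA and −5.98 in footprints.

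The order of the levels differed between assays and genotypes. In footprints of *dbp1Δ::kanMX6* cells it ran *DED1*, *SUB2*, *DBP5*, *DBP2*, *MSS116*, *FAL1*, *MRH4* and *DBP1*, and every gene differed from the next beyond counting error. In footprints of wild type it ran *DBP1*, *DED1*, *SUB2*, *DBP5*, *DBP2*, *MSS116*, *FAL1* and *MRH4*, and only *FAL1* and *MRH4* were within counting error of each other (ratio 1.52, 0.943 to 2.46). As deposited, and apart from *DBP1* itself, the order of the others was thus the same in both. In mRNA of *dbp1Δ::kanMX6* cells it ran *DBP2*, *SUB2*, *DBP5*, *DED1*, *MSS116*, *FAL1*, *MRH4* and *DBP1*, again with every step beyond counting error. In mRNA of wild type it ran *SUB2*, *DBP1*, *DED1*, *DBP2*, *DBP5*, *MSS116*, *FAL1* and *MRH4*. There *DBP2* and *DBP5* (1.04, 0.901 to 1.21) and *FAL1* and *MRH4* (1.63, 0.922 to 2.90) were within counting error of each other. In every library the place of *DBP2* is less certain, since the length by which its reads were divided is not known.

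Translation efficiency set the paralogs apart from the rest. *DED1* had a TE of 3.67 (3.42 to 3.94) in *dbp1Δ::kanMX6* cells and 3.00 (2.70 to 3.32) in wild type. *DBP1* had a TE of 3.31 (3.02 to 3.62) in wild type, within counting error of *DED1* (ratio 1.10, 0.963 to 1.27). These wild-type values exceeded those of 98.7% (*DED1*) and 98.9% (*DBP1*) of entries. The TE of *DBP1* in the deletion, 2.38 (1.46 to 3.88), rests on the few remaining reads. Their source was not tested and the *DBP1* ORF was removed, so this value does not measure *DBP1* translation.

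The other 6 genes spanned a TE of 0.323 to 1.12 in *dbp1Δ::kanMX6* cells and 0.425 to 1.42 in wild type. *DBP5* was the highest of them in both genotypes. *DBP2* had the lowest in the deletion, 0.323 (0.302 to 0.344), against 0.733 (0.655 to 0.820) in wild type. Its TE ratio of 0.440 (0.387 to 0.501) exceeded that of 4.11% of entries. *DBP2* was the 1 gene of the 6 other than *DBP1* that passed the minimum with a TE at least 1.5-fold lower, where 18.0% of all 5452 entries were. None had a TE at least 1.5-fold higher, where 10.7% of entries were. TE ratios above 1 were seen for *MSS116* (1.41, 1.09 to 1.81), *SUB2* (1.24, 1.09 to 1.40) and *DED1* (1.23, 1.08 to 1.39). The ratio of *DBP5* was 0.788 (0.666 to 0.933), and the intervals of *FAL1* (0.417 to 1.21) and *MRH4* (0.728 to 2.46) included 1.

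**Figure D4:**
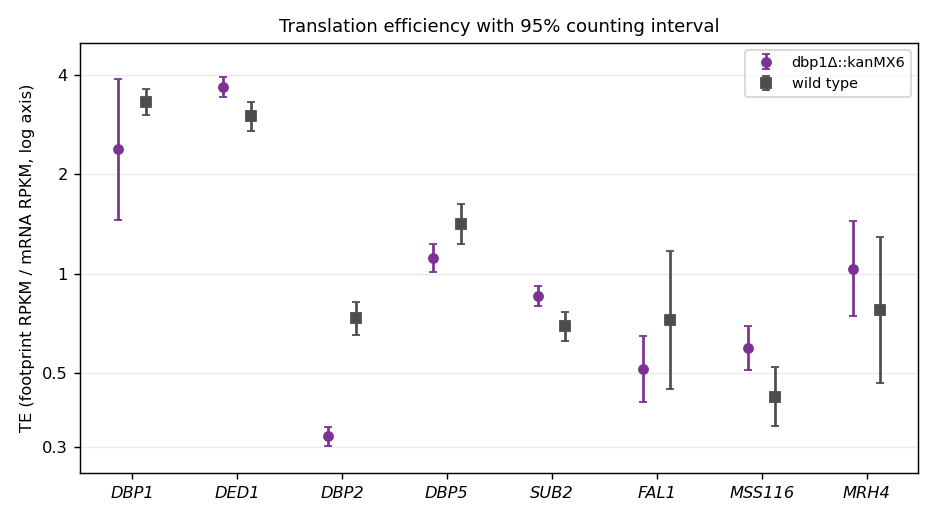
Translation efficiency of each gene (footprint RPKM over mRNA RPKM, log axis) in *dbp1Δ::kanMX6* cells (circles) and wild type (squares), with 95% counting intervals. In wild type *DBP1* and *DED1* stand at 3.31 and 3.00, and in the deletion *DED1* stands at 3.67. The deletion value of *DBP1*, 2.38, comes from reads of untested source, since its ORF was removed. *DBP2* at 0.323 in the deletion is the lowest value plotted.

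The remaining 18 DEAD-box genes of yeast served as the wider family. Of the 13 that act in ribosome assembly, 10 had footprints and 11 had mRNA at least 1.5-fold higher in *dbp1Δ::kanMX6* cells, against 36.3% and 36.0% of all entries, with a median mRNA ratio of 2.78. *FAL1*, which shares this process, had an mRNA ratio above all 13, but its interval (3.08 to 6.89) overlapped those of the highest. The highest of the 13 were *HCA4* (3.35, 2.54 to 4.49) and *DBP7* (3.20, 2.33 to 4.47) in mRNA, and *DBP6* (2.62, 1.85 to 3.76) and *DBP7* (2.55, 1.88 to 3.45) in footprints. The lowest were *DBP3* (0.350, 0.280 to 0.439) and *DRS1* (0.803, 0.611 to 1.05) in footprints, and the same genes in mRNA (1.15 and 1.35). A TE at least 1.5-fold lower was found for 9 of the 13, against 18.0% of all entries. After centring, the median log2 ratio of the 13 was 0.48 for footprints and 1.10 for mRNA. *SGD1*, the cofactor of Fal1 in 18S rRNA maturation, had ratios of 2.22 (1.81 to 2.72) for footprints and 2.04 (1.73 to 2.44) for mRNA.

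The other 5 DEAD-box genes act in translation, decay and splicing. Their median ratio was 1.33 for footprints and 1.76 for mRNA. After centring, the median log2 ratio of these 5 was 0.066 for footprints and 0.45 for mRNA. *PRP28*, a splicing helicase, had the highest ratios, 1.55 (1.16 to 2.06) for footprints and 2.75 (1.91 to 4.05) for mRNA, followed by *TIF1* with 1.38 (1.26 to 1.51) and 2.47 (2.19 to 2.79). *PRP5* and the decay activator *DHH1* had the lowest, 1.17 and 1.21 for footprints. For mRNA these were 1.29 (*PRP5*) and 0.817 (*DHH1*). *TIF1* and *TIF2* encode the same protein, eIF4A, and the division of reads between them is uncertain.

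**Figure D5:**
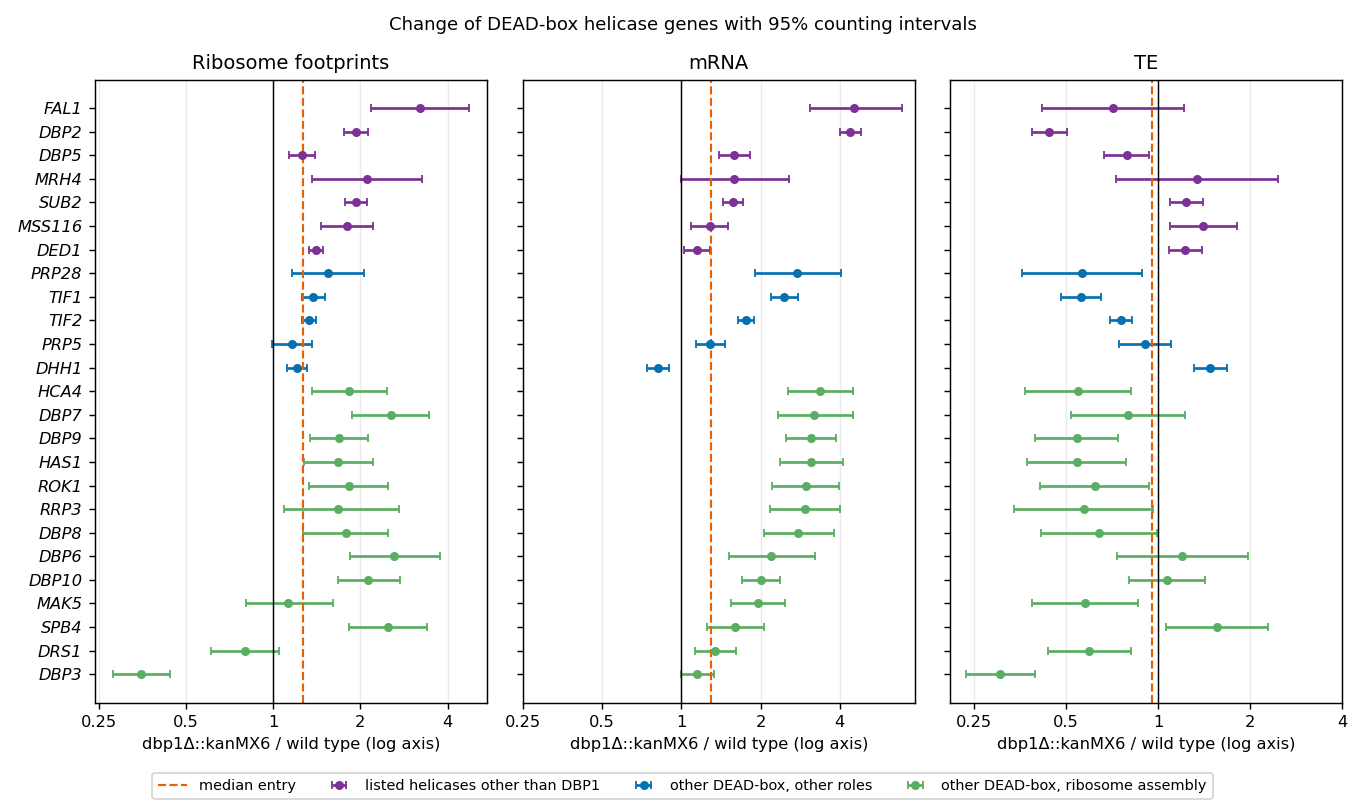
Ratio of *dbp1Δ::kanMX6* to wild type (log axis) with 95% counting intervals for the 7 listed helicases other than *DBP1* (purple) and the 18 other DEAD-box genes (blue and green), each set ordered by its mRNA ratio. *FAL1* (4.52) and *DBP2* (4.39) have the highest mRNA ratios of the 25 genes, and *DED1* (1.15) lies at the lower end beside *DBP3* (1.15) and *DHH1* (0.817).

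Genes that work with the listed helicases were read from lists of their partners. Of 8 genes of the cap-binding complex and its regulators, the machinery on which Ded1 acts, 1 had footprints and 5 had mRNA at least 1.5-fold higher. Across all entries the shares were 36.3% and 36.0%. Their TE ratios ran from 0.559 to 0.892, with intervals below 1 for 4 genes and including 1 for the other 4, whereas 44.8% of all entries had a TE ratio above 1. *TIF1* and *TIF2* are 2 of these genes, and the entry that names both had a TE ratio of 0.984. The cap-binding protein gene *CDC33* had the highest footprint ratio, 1.62 (1.38 to 1.89), then *TIF1*, and the poly(A)-binding protein gene *PAB1* had the lowest, 0.619 (0.584 to 0.655), then *TIF4632* (1.07, 0.951 to 1.19). In mRNA *TIF1* and *TIF4631* (2.02, 1.73 to 2.36) were highest, and *PAB1* (0.769) and *TIF3* (1.26) lowest.

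Of 6 TREX genes, whose products work with Sub2, none had footprints at least 1.5-fold higher, unlike *SUB2*, and 2 had footprints at least 1.5-fold lower, against 36.3% and 13.9% of all entries. These were *THP2* (0.422, 0.303 to 0.587) and *MFT1* (0.450, 0.381 to 0.528). *HPR1* (1.29) and *THO2* (1.23) were highest in footprints. In mRNA *TEX1* (1.56) and *HPR1* (1.55) were highest, and *MFT1* (0.556) and *THP2* (0.738) lowest.

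Of 6 export genes that work with Dbp5, 1 had footprints at least 1.5-fold higher (36.3% of all entries) and 3 at least 1.5-fold lower (13.9% of all entries). *MEX67* (1.53, 1.26 to 1.89) and *GLE1* (1.13), which encodes the activator of Dbp5, were highest, and *GFD1* (0.492, 0.379 to 0.639) and *MTR2* (0.510, 0.363 to 0.716) lowest. In mRNA *NUP42* (1.87) and *MEX67* (1.50) were highest, and *GFD1* (0.611) and *NUP159* (0.930) lowest.

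Of 5 nuclear genes for mitochondrial intron splicing, 4 passed the minimum. *CBP2* had higher footprints (3.12, 2.20 to 4.49), as *MSS116* did, *NAM2* had 1.33 and *MNE1* had 0.192 (0.0985 to 0.347). *PET54* footprints were 25.3 RPKM in *dbp1Δ::kanMX6* cells against 20.3 RPKM in wild type. *MRS1*, under the minimum, had a footprint ratio of 5.00 (1.62 to 20.7) and an mRNA ratio of 1.60. In mRNA *PET54* (1.65) was highest, and *NAM2* (0.791) and *CBP2* (1.51) lowest. *MRPL16* and *MRPL39*, proteins of the mitochondrial large subunit in whose assembly Mrh4 acts, had footprint ratios of 0.599 (0.472 to 0.761) and 1.14 (0.861 to 1.50), and mRNA ratios of 1.07 and 0.985.

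Among 3039 other entries averaging 50 RPKM or more, with no library under 1 RPKM, those most like *DED1* over the 4 libraries were *DSK2*, *GVP36* and *CPR1*, at distances of 0.11 to 0.15 in centred log2 RPKM. *DSK2* had a footprint ratio of 1.41 and an mRNA ratio of 1.27, *GVP36* had 1.43 and 1.01, and *CPR1* had 1.45 and 1.12. The entries nearest to *DBP1* were YBR056W-A, *GAT4* and YLR194C, but at distances of 1.74 to 2.60, so no entry was as near to *DBP1* as these were to *DED1*. Their footprint ratios were 0.0138, 0.0229 and 0.0315, and their mRNA ratios were 0.0961, 0.0334 and 0.0949. The distances rest on 4 libraries and describe these values alone. Those of *DBP1* use deletion libraries in which its ORF was removed, so the contrast with *DED1* was partly set by the design.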

How the data were processed

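Ribosome footprints and mRNA were each sequenced once per genotype. The deposited values are RPKM: after mapping to the SK1 genome, the authors scaled the reads of each ORF to its length and to all mapped reads of the library. The submitters' processing notes name CASAVA, bcl2fastq 2.17 and Bowtie2. Strand, annotation and the handling of reads with several matches are not given in the sources used here. Of 6549 entries, 199 name several ORFs, none of them a listed helicase.

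The members and gene lists were chosen with earlier results of these data known. Ratios used a pseudocount of 0, and counts across entries were limited to the 5552 that averaged 10 RPKM or more. The number of reads was inferred from ORFs under 500 bp and under 20 RPKM, with lengths from a RefSeq gene table of S288C (assembly R64, 5771 entries matched). Since this is not the SK1 build, no coordinates are given. No other ORF in the table overlaps the 8 genes. At the inferred depths 63.7% to 68.7% of the values used fell on whole reads, where chance gave 6.97% to 14.8%. Ratio intervals are exact conditional (Clopper-Pearson), those of TE come from summed reciprocal reads on the log scale, and the procedure was tested on simulated data. Python 3.11.15 with numpy 2.4.6, scipy 1.17.1 and pandas 2.3.3 was used.

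Named were the 8 helicases, the 2 largest changes in each direction and assay of each other list, and the 3 entries nearest to *DED1* and *DBP1* by Euclidean distance. *NAM2*, *MNE1* and *MRS1* complete the shortest lists. A planned comparison of protein sequences was not run. The alternatives were pseudocounts of 1 and 0.1 RPKM, centring on the median entry, a trimmed-mean scaling, scaling without the 50 highest and mitochondrially encoded entries, filters at 1 or 50 RPKM or none, a lower fold and a fold of 2, levels not divided by length, and reads inferred from ORFs of 500 to 800 bp.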

Additional observations from a re-analysis of the deposited data

How the results depend on the processing

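With no replicates, scaling was the choice that moved the most values, and 135 of 162 values under an alternative stayed within counting error or, for counts, within 1.5 times. Centred on the median entry or with trimmed-mean scaling, the *DED1* footprint ratio was 1.10 under both, and 3 ratios above 1 turned below it: *DED1* mRNA (0.887 and 0.890), *DBP5* footprints (0.987 and 0.986) and *MSS116* mRNA (0.990 and 0.994). Of the 4 helicases with mRNA at least 1.5-fold higher, 2 were left when centred on the median entry, with trimmed-mean scaling, without the 50 highest and mitochondrially encoded entries, or at a fold of 2. The background was then 17.9%, 18.2%, 29.1% and 16.6% of entries. Of the 4 with footprints at least 1.5-fold higher, 3 were left when centred on the median (17.6% of entries) or with trimmed-mean scaling (17.5%). At a fold of 2, 1 was left (15.1% of entries). A minimum of 50 RPKM left 2 (31.9% of entries), since it took *FAL1* and *MSS116*, with means of 23.4 and 40.6 RPKM, out of the count. The count for TE was 0, and 1 at the lower fold tried (22.7% of entries). No scaling turned the direction of *DBP1*, *DBP2*, *SUB2* or *FAL1* in either assay. Depth limits *MRH4*, *FAL1* and the remaining *DBP1* reads, and the wild-type mRNA library, at 2220000 inferred reads, was the shallowest. No paired analysis was possible because each genotype has 1 library per assay.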

Other observations

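A further entry, YJL138C;YKR059W, names both eIF4A genes, *TIF1* and *TIF2*, and how reads were assigned to it is not stated. It had 547.9 RPKM of footprints in *dbp1Δ::kanMX6* cells against 329.8 RPKM in wild type, a ratio of 1.66, and 860.9 RPKM of mRNA against 509.9 RPKM, a ratio of 1.69. Its TE was 0.636 in *dbp1Δ::kanMX6* cells and 0.647 in wild type, whereas the TE ratios of the separate *TIF1* and *TIF2* entries were 0.559 and 0.755.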
